A study of Mus musculus with 35 samples.

Results

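The diet dependence of the difference between CXCR6pos and CXCR6neg CD8 T cells of the mouse liver is described here, gene by gene. The measure was an interaction: the log2 fold change of CXCR6pos over CXCR6neg cells under the diet labelled CD-HFD, minus the same fold change under the diet labelled ND. A positive interaction means that the CXCR6pos minus CXCR6neg difference was higher under CD-HFD. Of 22865 genes in the count table, 6174 had enough counts to be tested, and 89 of them passed the interaction test at an adjusted p under 0.05. The interaction used 21 liver libraries of the 34 libraries in the table that match a labelled sample.

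All cells came from C57BL/6 mice aged 13 months and were sorted as CD8 T cells from the liver. The 4 groups were CD-HFD CXCR6pos with 5 libraries, CD-HFD CXCR6neg with 6, ND CXCR6pos with 6 and ND CXCR6neg with 4. ND CXCR6neg replicate 1 was left out because its column is identical to a spleen column in all 22865 genes, and CD-HFD CXCR6pos replicate 6 was not analysed here. The labels do not say whether replicates came from separate mice, so the p-values measure only the spread between these samples, which may be technical. Total counts per library were 57168 to 369055 in CD-HFD CXCR6pos, 84808 to 355845 in CD-HFD CXCR6neg, 15633 to 494700 in ND CXCR6pos and 165811 to 419019 in ND CXCR6neg libraries. Levels are given as TMM-scaled CPM, a library's counts relative to its total, in which trimmed-mean scaling factors correct each library's total.

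CXCR6 is a chemokine receptor whose ligand CXCL16 is made in the liver, and it marks CD8 T cells that stay in liver tissue. CD8 T cells that recirculate through blood and lymph nodes carry the egress receptor S1PR1, the lymph node homing receptor CCR7, the cytokine receptor IL-7R and the transcription factors KLF2 and TCF-1 (Tcf7), and resident or chronically stimulated cells lower these. CD-HFD is commonly used for a choline-deficient high-fat diet, which leads to steatohepatitis in mice. In bulk RNA, fewer cells of a type and less RNA per cell cannot be told apart, and this holds for every level below.

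The sorted marker itself separated the fractions in each CD-HFD library but not in each ND library. Cxcr6 had 573, 601, 776, 803 and 867 CPM in the CD-HFD CXCR6pos libraries, and its lowest, median and highest values in CD-HFD CXCR6neg were 52.9, 79.5 and 124 CPM. Under ND it had 201, 499 and 812 CPM (lowest, median and highest) in CXCR6pos and 40.0, 194, 227 and 450.0 CPM in CXCR6neg libraries. The library labelled ND CXCR6pos replicate 6 held the lowest Cxcr6 of its group, 201 CPM. In ND CXCR6neg the highest value, 450.0 CPM, was that of the library labelled replicate 4. Siglech, a receptor of plasmacytoid dendritic cells, was at 133 CPM in ND CXCR6pos replicate 6 and at 0 to 6.68 CPM in the other 5 ND CXCR6pos libraries. It was at 123 to 241 CPM in CD-HFD CXCR6neg and at 64.3 to 205 CPM in ND CXCR6neg libraries, with the lowest value in replicate 4. In Cxcr6 each of these 2 libraries lay within the range of the other ND fraction. So did ND CXCR6pos replicates 1 (295 CPM) and 2 (449.8 CPM) and ND CXCR6neg replicate 5 (227 CPM), within range ends that the 2 libraries set. In Siglech ND CXCR6pos replicate 6 lay among the CXCR6neg values, while ND CXCR6neg replicate 4 lay above the other 5 ND CXCR6pos libraries, on the side of its label. ND CXCR6pos replicate 6 and ND CXCR6neg replicate 4 are called gate-discordant below, and the counts and the calls of several genes are also given without them. They were chosen by their Cxcr6 values, with earlier results known, so no test of Cxcr6 without them is given. For genes that follow Cxcr6 this choice favours a difference between the ND fractions, so ND calls without the 2 libraries are descriptive.

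**Figure D1:**
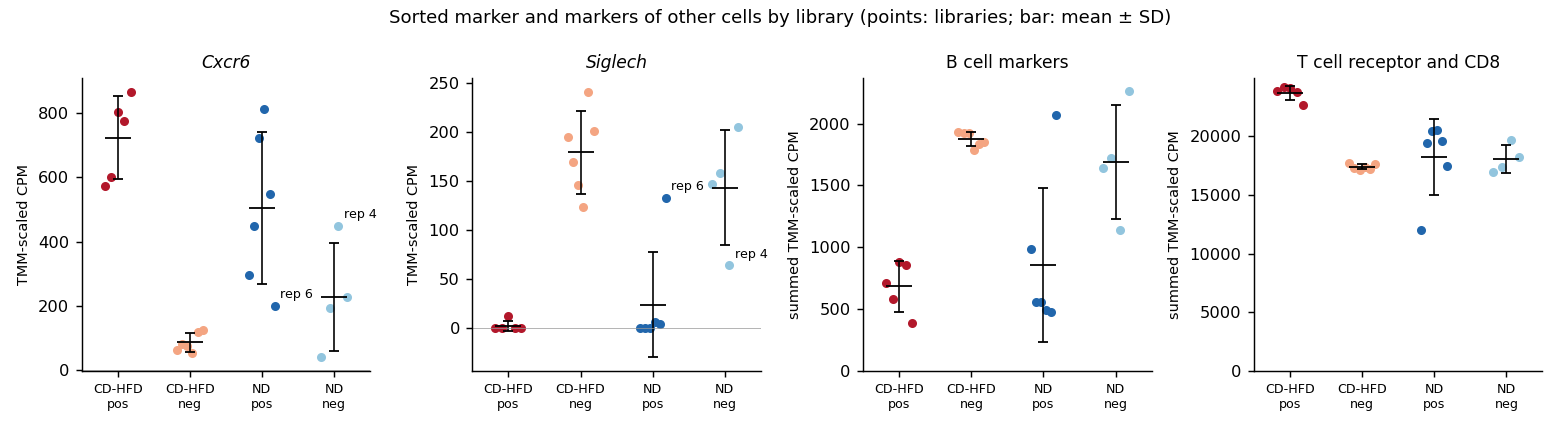
Each point is a library and each bar the mean ± SD of the group. The panels plot Cxcr6 and Siglech in TMM-scaled CPM and the summed CPM of B cell markers and of T cell receptor and CD8 genes, in the order CD-HFD CXCR6pos, CD-HFD CXCR6neg, ND CXCR6pos, ND CXCR6neg. The CD-HFD fractions are apart in Cxcr6, while ND CXCR6pos replicate 6 lies at 201 CPM and ND CXCR6neg replicate 4 at 450 CPM.

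Summed markers of plasmacytoid dendritic cells and of B cells were each lower in each CD-HFD CXCR6pos library than in every CD-HFD CXCR6neg library. For both lists the ND fractions overlapped only through ND CXCR6pos replicate 6. The summed level of 19 plasmacytoid dendritic cell markers ran from 1185 to 1356 CPM in CD-HFD CXCR6pos, with Spib, Smim5 and Ccr9 at 0, against 2619 to 3228 CPM in CD-HFD CXCR6neg. It ran from 837 to 2798 CPM in ND CXCR6pos and from 1825 to 3103 CPM in ND CXCR6neg. The summed level of 15 B cell markers ran from 389 to 878 CPM in CD-HFD CXCR6pos, 1789 to 1935 CPM in CD-HFD CXCR6neg, 479 to 2068 CPM in ND CXCR6pos and 1135 to 2264 CPM in ND CXCR6neg. The defining B cell gene Cd79a was at 0 in both CXCR6neg groups. The summed level of 8 conventional dendritic cell markers was 0 to 12.4 CPM in CD-HFD CXCR6pos, 35.2 to 76.5 CPM in CD-HFD CXCR6neg, 8.63 to 52.8 CPM in ND CXCR6pos and 44.5 to 80.04 CPM in ND CXCR6neg. That of 8 CD4 and regulatory T cell markers was 378 to 808 CPM in CD-HFD CXCR6pos and 148 to 591 CPM in CD-HFD CXCR6neg, above the 49.2 to 122 CPM of ND CXCR6pos and the 81.6 to 133 CPM of ND CXCR6neg libraries. Erythroid cell markers summed to 3654 to 10573 CPM in CD-HFD CXCR6pos and 1731 to 9148 CPM in CD-HFD CXCR6neg. Under ND they summed to 2261 to 6095 CPM in CXCR6pos and 3900 to 9018 CPM in CXCR6neg, and all groups overlapped. T cell receptor and CD8 genes summed to 22707 to 24217 CPM in CD-HFD CXCR6pos, above the 17155 to 17691 CPM of CD-HFD CXCR6neg, the 12014 to 20574 CPM of ND CXCR6pos and the 16948 to 19703 CPM of ND CXCR6neg libraries. Mitochondrially encoded genes took 2.7 to 2.99% of the counts in CD-HFD CXCR6pos and 3.15 to 4.1% in CD-HFD CXCR6neg, with 2.37 to 4.34% in ND CXCR6pos and 2.42 to 3.78% in ND CXCR6neg. The part of these differences in the interaction was not tested.

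The interaction was called for 89 genes by edgeR's quasi-likelihood test with Benjamini-Hochberg adjustment over 6174 genes, which is 1.44% of the genes tested. In 27 of them (0.437% of the genes tested) the difference was higher under CD-HFD and in 62 (1.00%) it was lower. Of the 89, 86 separated the fractions under CD-HFD, where 688 genes (11.1%) were called between the fractions (4.76% higher and 6.38% lower), and did not pass under ND, where 2 genes (0.0324%) did. No gene with an interaction passed under ND, and 3 passed under neither diet. A p over the threshold does not show that ND fractions were equal, so the interval matters: the 95% interval of the ND difference lay inside 1 log2 unit on either side of 0 for 70 of the 86 genes, inside 0.5 log2 units for 37, and held 0 for 64. The ND difference had the same sign as the CD-HFD difference in 54 of the 86. Among the 25 genes of this class with a higher interaction, the median log2 fold change between fractions was 0.99 under CD-HFD and 0.05 under ND, and among the 61 with a lower interaction it was -1.43 and -0.088. The interaction thus covered 12.5% of the 688 genes called between the CD-HFD fractions, and for the other 602 a difference between the diets was not shown.

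**Figure D2:**
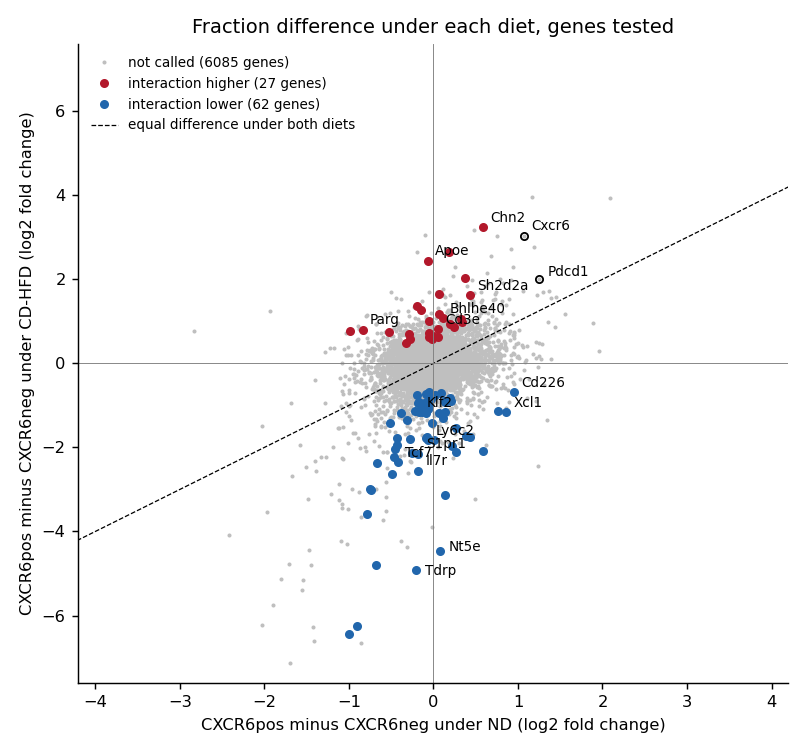
Each point is 1 of 6174 genes, with its CXCR6pos minus CXCR6neg log2 fold change under CD-HFD on the vertical axis and under ND on the horizontal axis. The 27 genes with a higher interaction (red) and the 62 with a lower one (blue) lie off the dashed line of equal difference, and the labelled genes Pdcd1 and Cxcr6 (open circles) were not called.

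Among the 89 genes CD-HFD CXCR6pos had the highest or the lowest of the 4 group means in 87 of the 89 genes (97.8%), against 63.2% of all genes tested, and the exceptions were Parg and Tfip11. Values of the CD-HFD fractions did not overlap for 80 of the 89 genes, against 6.85% of all genes, and those of the ND fractions did not overlap for 1 of the 89, against 1.04% of all genes. The 89 genes were chosen by a contrast of these same values, so these shares describe them and nothing is read from the difference to all genes. Between the diets 697 genes (11.3%, with 4.84% higher and 6.45% lower) were called within CXCR6pos cells and 29 (0.470%) within CXCR6neg cells, and these comparisons share their libraries with the interaction.

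**Figure D3:**
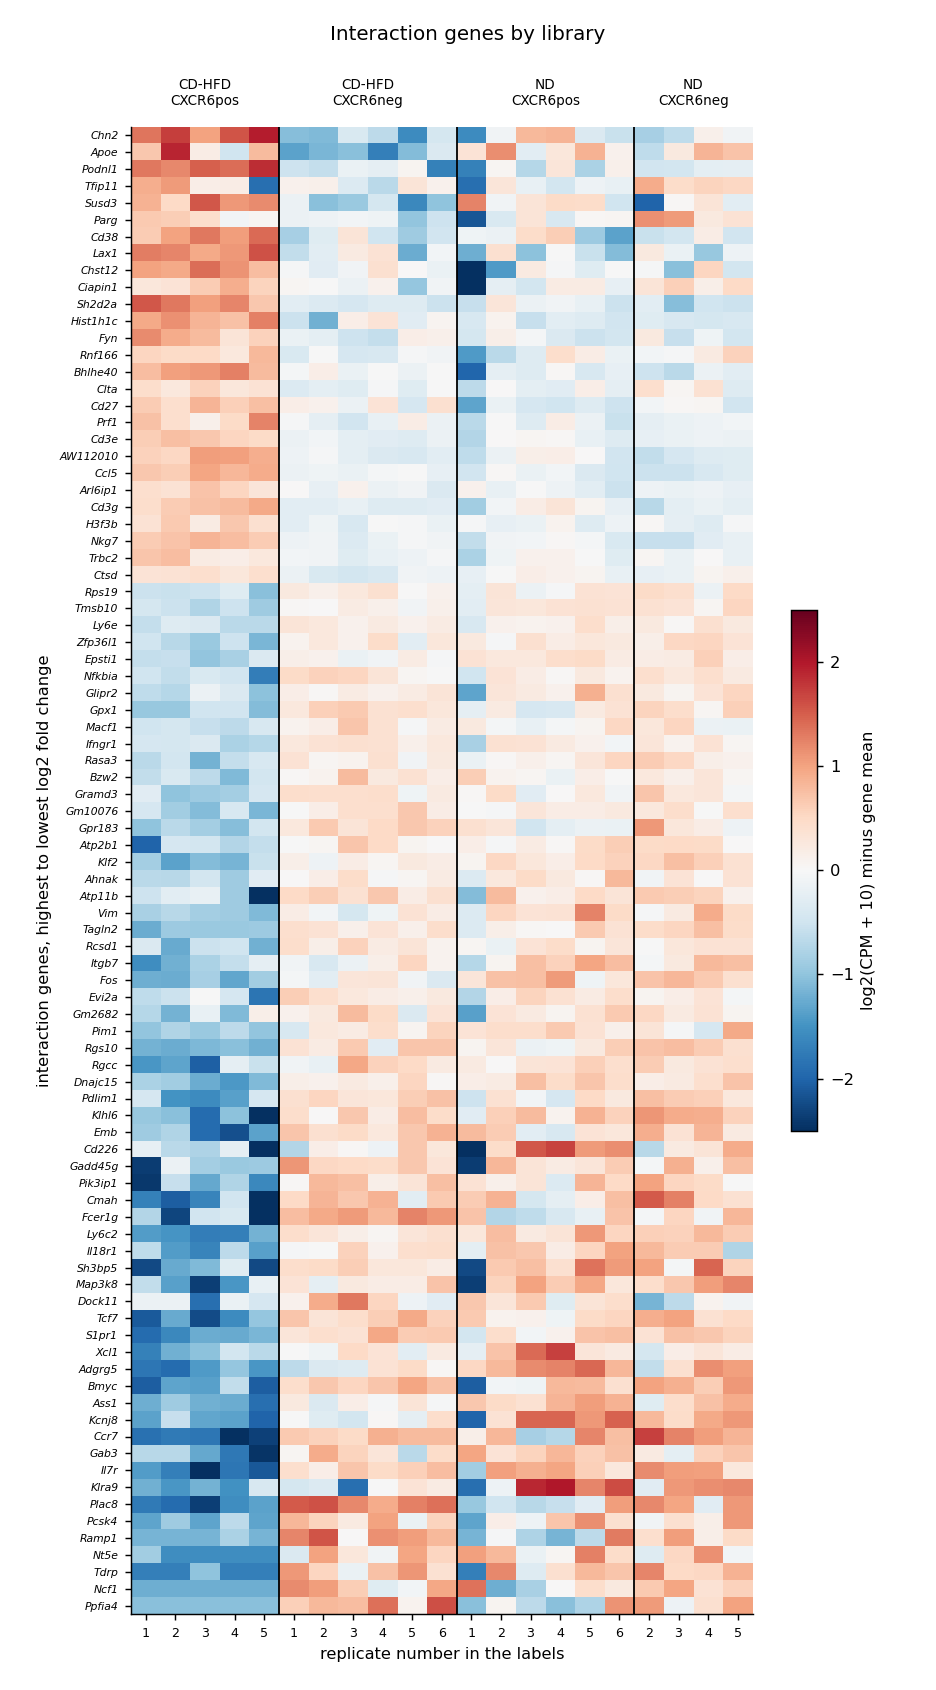
Rows are 88 of the 89 interaction genes, from the highest to the lowest interaction log2 fold change, and columns are the 21 liver libraries by group and replicate number. The color gives log2(CPM + 10) minus the gene's mean over libraries. The 5 CD-HFD CXCR6pos columns differ from the other 3 groups in both blocks, and ND CXCR6pos replicate 1 is the column with the fewest counts (15633).

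The libraries labelled ND CXCR6pos replicate 6 and ND CXCR6neg replicate 4 weighed on the count under ND and on the interaction calls more than on the direction of the interaction. Without both, 53 genes were called, 13 higher and 40 lower. Of the 89, 46 kept their call, 42 lost it and Ppfia4 was not tested, and none with a value changed sign. The genes called between the ND fractions then numbered 90, with 24 higher and 66 lower, and 46 genes remained in the class separated only under CD-HFD. Leaving out ND CXCR6pos replicate 6 alone gave 67 interaction genes and 58 genes between the ND fractions. In the fit without both libraries, Tcf7, Sh2d2a, Plac8, AW112010 and Irf8 passed under both diets with an interaction between them. The fractions differed more under ND for Irf8 (log2 fold change -3.62, against -1.94 under CD-HFD) and more under CD-HFD for the others. Fasl, the ligand of the death receptor Fas, then separated the ND fractions (log2 fold change 0.71, adjusted p = 0.00605 by edgeR with Benjamini-Hochberg adjustment). These ND calls come from libraries chosen by Cxcr6 and are no independent evidence of a difference. The 2 genes called under ND with all libraries were both lower in CXCR6pos: Grn, which encodes the growth factor progranulin, and the ribosomal RNA gene n-R5-8s1, which lies outside the naming rule.

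Genes of naive and memory T cells were mostly lower in CXCR6pos than in CXCR6neg cells under CD-HFD, and several of them depended on the diet. Of 23 genes in that list 19 were tested. In CD-HFD CXCR6pos 17 were lower and 1 was higher, against 6.38% lower and 4.76% higher of all genes, and none was called under ND. In the interaction, 1 had a higher and 5 a lower interaction (31.6%, against 1.44% of all genes). The list's median interaction was -1.21, its median log2 fold change between fractions was -2.12 under CD-HFD and -0.56 under ND, and the median interaction of all genes was -8.0e-05. Members on the list for FOXO1, a transcription factor that maintains the quiescent state, overlap with it. Of 13 tested, 6 had a lower interaction (46.2%, against 1.00% of all genes), Klf2, S1pr1 and Tcf7 among them, and none had a higher one. Each of these 6 is also counted in the naive and memory list or in the egress list below. Foxo1 itself was not called, with an interaction of -0.30 ± 0.56 (SE). The lists here and below were chosen with earlier results of these data known, and some share members. Their counts therefore only describe the genes. For every list the share of all genes with an interaction was 1.44%.

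Tcf7, which encodes TCF-1, the factor that keeps memory and stem-like CD8 T cells, had 31.1, 35.4, 54.8, 70.9 and 88.4 CPM in the CD-HFD CXCR6pos libraries. It had 233, 282 and 362 CPM (lowest, median and highest) in CD-HFD CXCR6neg, 170.4, 229 and 295 CPM in ND CXCR6pos and 242, 262, 354 and 379 CPM in ND CXCR6neg libraries. All 5 CD-HFD CXCR6pos values lay below every value of the other 3 groups, and the ND fractions overlapped. The log2 fold change between fractions was -2.36 under CD-HFD and -0.42 under ND (95% interval -0.71 to -0.12), an interaction of -1.94 ± 0.26 (adjusted p = 1.71e-08 by edgeR with Benjamini-Hochberg adjustment). Without the 2 gate-discordant libraries the ND difference was called too, and the interaction was -1.74.

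Il7r, the receptor for the survival cytokine IL-7, had 24.9, 35.4, 46.2, 50.6 and 65.0 CPM in CD-HFD CXCR6pos libraries, against 211, 277 and 328 CPM (lowest, median and highest) in CD-HFD CXCR6neg. Under ND it had 98.5, 323 and 391 CPM in CXCR6pos and 227, 391, 397 and 440.2 CPM in CXCR6neg libraries, and those groups overlapped. Its interaction was -2.38 ± 0.31 (adjusted p = 4.83e-07 by edgeR), and the ND difference was -0.18 with a 95% interval of -0.52 to 0.16. Ccr7 had 45.6, 366, 300.0 and 538 CPM as means of CD-HFD CXCR6pos, CD-HFD CXCR6neg, ND CXCR6pos and ND CXCR6neg. Its interaction of -2.28 lost its call without CD-HFD CXCR6pos replicate 4, without ND CXCR6neg replicate 4 and without both gate-discordant libraries (adjusted p = 0.0862). The member that went the other way was Cd27, a costimulatory receptor of the TNF receptor family, with 416, 281, 181 and 242 CPM in the same order of groups and an interaction of 0.81 ± 0.20 that was not called without the 2 libraries (adjusted p = 0.101 by edgeR).

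**Figure D4:**
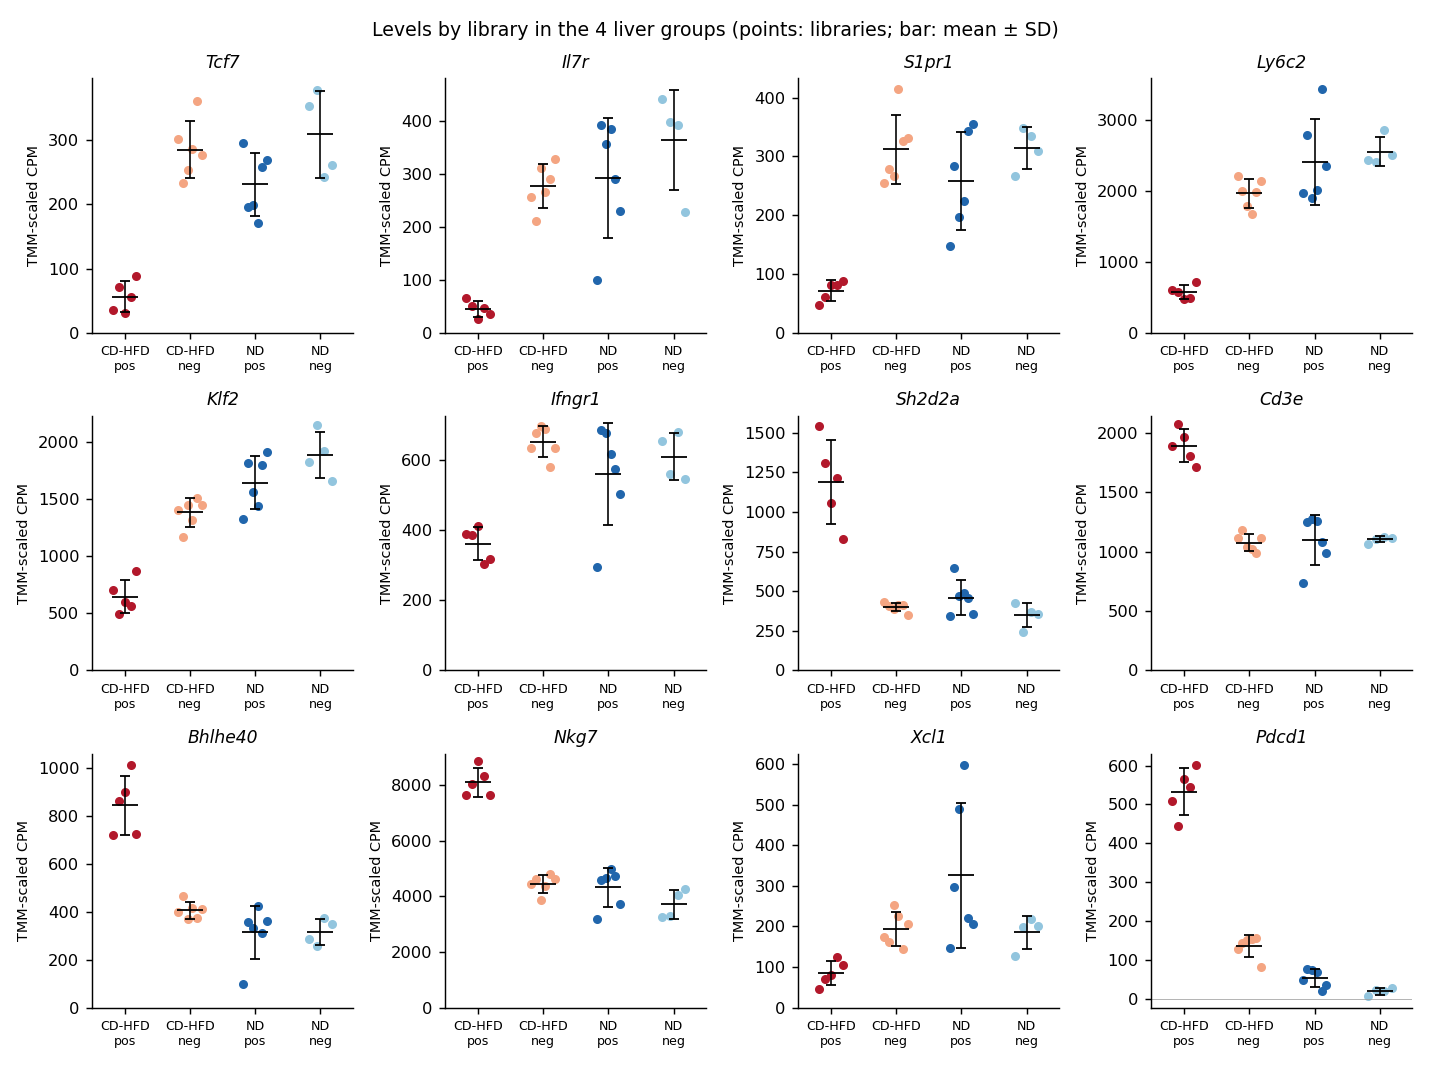
Levels of 12 genes in TMM-scaled CPM on axes that start at or just below 0, with 1 point per library and bars for mean ± SD, in the order CD-HFD CXCR6pos, CD-HFD CXCR6neg, ND CXCR6pos, ND CXCR6neg. Tcf7, Il7r, S1pr1, Ly6c2, Klf2, Ifngr1 and Xcl1 have their lowest mean, and Sh2d2a, Cd3e, Bhlhe40 and Nkg7 highest, in CD-HFD CXCR6pos, while Pdcd1 is higher in CD-HFD than in ND libraries of both fractions.

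Genes of egress and recirculation had the highest number of lower interactions among the lists. Of 18 genes 17 were tested, 7 were lower (41.2%, against 1.00% of all genes) and none was higher, with a median interaction of -0.99 and a median log2 fold change of -0.92 under CD-HFD and -0.13 under ND. Ly6c2, which encodes the memory and activation antigen Ly-6C, had the smallest p of all interactions. It had 479, 488, 574, 602 and 707 CPM in CD-HFD CXCR6pos libraries, against 1674, 1983 and 2199 CPM (lowest, median and highest) in CD-HFD CXCR6neg, 1889, 2176 and 3432 CPM in ND CXCR6pos and 2407, 2428, 2501 and 2854 CPM in ND CXCR6neg. Every CD-HFD CXCR6pos library lay below all libraries of the other 3 groups, and the ND fractions overlapped. The fractions differed by -1.82 under CD-HFD (3.54-fold lower in CXCR6pos) and by -0.061 under ND (95% interval -0.28 to 0.16), and the interaction was -1.76 ± 0.16 (adjusted p = 3.18e-15 by edgeR). Ly6c1 and other Ly6 genes are close in sequence, so counts may be split between them.

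S1pr1, the receptor for sphingosine 1-phosphate that lets T cells leave tissue, had 47.3, 60.8, 80.8, 80.9 and 88.4 CPM in CD-HFD CXCR6pos and 255, 302 and 414 CPM (lowest, median and highest) in CD-HFD CXCR6neg. In ND livers it had 148, 254 and 355 CPM in CXCR6pos and 267, 308, 334 and 348 CPM in CXCR6neg libraries. The CD-HFD CXCR6pos libraries lay apart from all others, and the interaction was -1.98 ± 0.24 (adjusted p = 1.22e-09 by edgeR), with an ND interval of -0.46 to 0.11. Klf2, the transcription factor that drives S1pr1, had 496, 563, 598, 703 and 867 CPM in CD-HFD CXCR6pos and 1167, 1425 and 1508 CPM in CD-HFD CXCR6neg. It had 1329, 1679.9 and 1912 CPM in ND CXCR6pos and 1654, 1821, 1924 and 2146 CPM in ND CXCR6neg, and its interaction was -0.99 ± 0.16. Klf2 was also lower under CD-HFD than under ND within CXCR6neg cells, by -0.45 on the log2 scale (adjusted p = 0.0177 by edgeR). Il7r, S1pr1, Klf2, Ly6c2 and Tcf7 kept their interaction call without each of the 21 libraries in turn and in every alternative fit. The members Itgb7 (integrin beta 7) and Rasa3, a Ras and Rap GTPase activator, were less stable: Itgb7 kept its call in 8 and Rasa3 in 11 of the 21 leave-one-out fits. Both are outside the naming rule and were chosen after their values were seen.

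The promoter windows of Dnajc15 (described below) and Il7r are shown, because both genes were lowest in CD-HFD CXCR6pos libraries. They are the 2 named genes with the smallest p among those with a lower interaction and exactly 1 window in the RefSeq promoter table used here; Ly6c2 and Tcf7 have 2 windows each, and S1pr1 was not matched. The windows span 250 bases before to 50 bases after the gene start in RefSeq on GRCm38.p6, the build of the deposited data, and are read 5′ to 3′ on the minus strand. Dnajc15 is at chr14:77874868-77875167 and Il7r at chr15:9529827-9530126. Neither window holds a match, on either strand, to CCNCNCCC (KLF), TGANTCA (AP-1), TGGAAA (NFAT), GTAAACA (FOXO), CTTTGAT (TCF) and AAAGGTCA (NR4A), so no letter is in capitals.
Dnajc15: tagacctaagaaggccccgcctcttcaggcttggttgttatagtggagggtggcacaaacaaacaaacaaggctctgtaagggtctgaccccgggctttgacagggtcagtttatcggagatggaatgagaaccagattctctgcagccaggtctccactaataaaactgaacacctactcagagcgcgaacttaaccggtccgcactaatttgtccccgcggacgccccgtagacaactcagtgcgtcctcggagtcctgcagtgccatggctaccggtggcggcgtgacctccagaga
Il7r: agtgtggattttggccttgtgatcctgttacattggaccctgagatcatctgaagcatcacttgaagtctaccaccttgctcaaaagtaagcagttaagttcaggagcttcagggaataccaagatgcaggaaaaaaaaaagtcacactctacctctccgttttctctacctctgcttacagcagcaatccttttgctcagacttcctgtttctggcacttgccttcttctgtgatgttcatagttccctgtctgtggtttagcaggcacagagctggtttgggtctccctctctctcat
The KLF motif is common: it occurs in 49.1% of 27025 promoters of the same length (the first window listed for each gene), and in 35 of 48 promoters of genes with a lower and 11 of 21 of genes with a higher interaction. A window was matched for 69 of the 89 genes, and a match is a description of letters only.

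Of 22 tissue residency genes 17 were tested, and 12 were higher and 1 was lower in CD-HFD CXCR6pos than in CD-HFD CXCR6neg cells, against 4.76% higher and 6.38% lower of all genes. In the interaction 2 had a higher and 1 a lower interaction (17.6%, against 1.44% of all genes). The median interaction was 0.96, with median log2 fold changes of 1.09 under CD-HFD and 0.57 under ND. Bhlhe40, a transcription factor of resident and mitochondrially active CD8 T cells, had 721, 725, 861, 896 and 1013 CPM in CD-HFD CXCR6pos and 368, 405 and 467 CPM (lowest, median and highest) in CD-HFD CXCR6neg, without overlap. Under ND the levels were 98.5, 343 and 424 CPM in CXCR6pos and 257, 287, 347 and 373 CPM in CXCR6neg. Its interaction was 0.96 ± 0.20 (adjusted p = 0.00164 by edgeR), and it was not called when the library held in 2 columns was kept in ND CXCR6neg.

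Chn2, which encodes the Rac GTPase activator beta-chimaerin, had 49.8, 65.0, 77.9, 87.8 and 106 CPM in CD-HFD CXCR6pos and 0, 6.53 and 12.7 CPM in CD-HFD CXCR6neg, against 0, 15.3 and 43.4 CPM in ND CXCR6pos and 6.67, 9.03, 17.7 and 22.3 CPM in ND CXCR6neg. The interaction of 2.65 ± 0.73 rested on few counts and kept its call in 12 of 21 leave-one-out fits and not without the 2 gate-discordant libraries (adjusted p = 0.349 by edgeR). Xcl1, a chemokine that attracts cross-presenting dendritic cells, had fraction differences of opposite sign under the 2 diets, of which the CD-HFD one was called. It had 47.3, 70.9, 80.9, 106 and 124 CPM in CD-HFD CXCR6pos and 145, 191 and 254 CPM in CD-HFD CXCR6neg, and 148, 258 and 598 CPM in ND CXCR6pos and 127, 199, 202 and 218 CPM in ND CXCR6neg. The CD-HFD fractions did not overlap, while the ND fractions did. The fraction difference was -1.17 under CD-HFD and 0.86 under ND (95% interval 0.28 to 1.43, adjusted p = 0.322), and the interaction of -2.03 ± 0.45 had an adjusted p of 0.0141 by edgeR. With the replicate number as a block or with no filter on low counts, Xcl1 passed under both diets, with opposite signs. The interaction kept its call in all 21 leave-one-out fits, but in 6 of them (without CD-HFD CXCR6pos replicate 1, 2 or 3 or CD-HFD CXCR6neg replicate 3, 4 or 6) the CD-HFD difference was not called.

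All 22 genes of the T cell receptor and CD8 list were tested, and 10 were higher and none was lower in CD-HFD CXCR6pos than in CD-HFD CXCR6neg cells, while 12 did not pass. Of all genes, 4.76% were higher and 6.38% lower between these fractions. In the interaction 4 had a higher interaction (18.2%, against 1.44% of all genes called in either direction) and none a lower one. The median interaction was 0.43, with median log2 fold changes of 0.41 under CD-HFD and 0.043 under ND. The summed level of this list, given above, was itself highest in CD-HFD CXCR6pos libraries and lowest in the shallow ND CXCR6pos replicate 1. Cd3e, a signalling chain of the receptor complex, had 1715, 1806, 1890.1, 1967 and 2076 CPM in CD-HFD CXCR6pos and 989, 1075 and 1182 CPM (lowest, median and highest) in CD-HFD CXCR6neg. Under ND it had 739, 1166 and 1278 CPM in CXCR6pos and 1067, 1102, 1116 and 1125 CPM in CXCR6neg libraries, which overlapped. Its interaction was 0.76 ± 0.14 (adjusted p = 2.79e-04 by edgeR), and the ND difference was 0.050 (-0.16 to 0.26).

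Cd3g, another CD3 chain, had means of 2261, 1127, 1321 and 1091 CPM in CD-HFD CXCR6pos, CD-HFD CXCR6neg, ND CXCR6pos and ND CXCR6neg, and an interaction of 0.65 ± 0.15. Trbc2, a constant segment of the receptor beta chain, had an interaction of 0.61 ± 0.15, and Fyn, a Src-family kinase of receptor signalling, one of 1.05 ± 0.22. Without the 2 gate-discordant libraries these 3 kept their direction but not their call, with adjusted p-values of 0.0795 for Cd3g, 0.064 for Trbc2 and 0.0601 for Fyn by edgeR, while Cd3e kept its call (adjusted p = 0.00257). Trbc1 and Trbc2 are near-identical, so counts of Trbc2 are uncertain. The coreceptor genes were not called: the interaction was 0.41 ± 0.16 for Cd8a and 0.12 ± 0.15 for Cd8b1.

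Sh2d2a encodes the T cell adaptor TSAd, which binds the kinase Lck, and had the smallest p among higher interactions. It had 831, 1058, 1215, 1309.6 and 1542 CPM in CD-HFD CXCR6pos, against 352, 408 and 429.5 CPM (lowest, median and highest) in CD-HFD CXCR6neg, 345, 462 and 645 CPM in ND CXCR6pos and 244, 354, 366 and 427 CPM in ND CXCR6neg. All CD-HFD CXCR6pos values exceeded all values of the other 3 groups. The fraction difference was 1.62 under CD-HFD and 0.44 under ND (0.17 to 0.70), and the interaction was 1.18 ± 0.18 (adjusted p = 1.56e-06 by edgeR). The ND difference was called without the 2 gate-discordant libraries, with an interaction of 1.05, so for Sh2d2a the fractions differed under both diets there, and more under CD-HFD. Lax1, an adaptor that dampens receptor signalling, averaged 317 ± 57.3 CPM in CD-HFD CXCR6pos and 113 ± 44.4 CPM in CD-HFD CXCR6neg (SD), against 90.9 ± 48.9 CPM in ND CXCR6pos and 111 ± 37.7 CPM in ND CXCR6neg, with an interaction of 1.56 ± 0.34.

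Among 20 tested cytotoxic effector genes 2 had a higher interaction (10%) and none a lower one, with a median of 0.29. Nkg7, a granule protein needed for degranulation, had 7631, 7639.8, 8036, 8318 and 8845 CPM in CD-HFD CXCR6pos and 3856, 4534 and 4802 CPM (lowest, median and highest) in CD-HFD CXCR6neg, and 3200.5, 4638 and 4971 CPM in ND CXCR6pos and 3255, 3288, 4036 and 4272 CPM in ND CXCR6neg. CD-HFD CXCR6pos libraries lay above all others, and the interaction was 0.62 ± 0.14 (adjusted p = 0.00439 by edgeR). Nkg7 is also on the list of 13 NK cell markers, whose defining gene Ncr1 was at 0 in all 4 groups and whose summed level ran from 8387 to 10613 CPM in CD-HFD CXCR6pos, 4814 to 6008 CPM in CD-HFD CXCR6neg, 4136 to 6113 CPM in ND CXCR6pos and 4082 to 6015 CPM in ND CXCR6neg. Nkg7 itself, with a mean of 8094 CPM in CD-HFD CXCR6pos and 4453 CPM in CD-HFD CXCR6neg, makes up most of that sum. Of the 8 NK cell markers tested, 2 were higher and 3 lower in CD-HFD CXCR6pos, with a median log2 fold change of -0.58 under CD-HFD and a median interaction of -0.82. Prf1, the pore-forming perforin, had an interaction of 0.77 ± 0.21 that kept its call in 10 of 21 leave-one-out fits and not without the 2 gate-discordant libraries (adjusted p = 0.185 by edgeR). Ccl5, a chemokine of effector CD8 T cells and one of the most abundant transcripts here, averaged 48830.0 ± 5335 CPM in CD-HFD CXCR6pos, 25689.8 ± 1302 CPM in CD-HFD CXCR6neg, 23492 ± 3589.5 CPM in ND CXCR6pos and 20496 ± 1538 CPM in ND CXCR6neg (SD). Its interaction was 0.73 ± 0.15 and kept its call in every alternative.

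Granzyme genes and Fasl showed no diet dependence past the threshold. Gzmb, the main apoptosis-inducing granzyme, averaged 1819 ± 453 CPM in CD-HFD CXCR6pos, 629 ± 75.6 CPM in CD-HFD CXCR6neg, 1173 ± 390.3 CPM in ND CXCR6pos and 632 ± 419 CPM in ND CXCR6neg (SD), and its interaction had a 95% interval of -0.29 to 1.57. Gzma had an interaction of 1.45 (0.35 to 2.55) and Fasl one of 0.16 (-0.24 to 0.56). For Fasl the fraction difference was 0.67 under CD-HFD and 0.51 under ND.

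The promoter windows chosen in the same way among genes with a higher interaction are those of Cd3e, on the minus strand at chr9:45009562-45009861, and Nkg7, on the plus strand at chr7:43436888-43437187 (RefSeq, GRCm38.p6). They are shown because both genes were highest in CD-HFD CXCR6pos libraries, and Sh2d2a, Bhlhe40 and Ccl5, with smaller p than Nkg7, were not matched. Capitals mark the NFAT match (TGGAAA, here on the reverse strand as TTTCCA) in Cd3e and the KLF matches (CCNCNCCC) in Nkg7, of which 2 overlap.
Cd3e: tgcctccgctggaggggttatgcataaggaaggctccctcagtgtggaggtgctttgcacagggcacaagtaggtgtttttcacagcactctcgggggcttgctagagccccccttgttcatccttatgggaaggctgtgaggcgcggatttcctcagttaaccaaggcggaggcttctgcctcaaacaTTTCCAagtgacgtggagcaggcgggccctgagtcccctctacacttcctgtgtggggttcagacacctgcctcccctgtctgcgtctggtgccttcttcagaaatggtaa
Nkg7: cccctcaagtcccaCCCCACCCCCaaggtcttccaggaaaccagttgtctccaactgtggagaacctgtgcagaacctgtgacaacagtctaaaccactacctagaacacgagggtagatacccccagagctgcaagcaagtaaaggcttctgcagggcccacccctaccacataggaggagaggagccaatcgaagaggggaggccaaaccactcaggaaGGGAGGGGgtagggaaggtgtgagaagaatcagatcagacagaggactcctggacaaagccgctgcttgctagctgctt
An NFAT match occurs in 21.5% of all 27025 promoters, in 5 of 21 promoters of genes with a higher interaction and in 8 of 48 of genes with a lower one. AP-1 matches occurred in 7.93% of all promoters, in none of the 21 and in 1 of the 48.

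Of 19 tested cytokine receptor and STAT5 feedback genes 3 had a lower interaction (15.8%), namely Il7r, Il18r1 and Ifngr1. Il18r1, the receptor for IL-18, had 12.4, 16.9, 17.7, 34.6 and 35.4 CPM in CD-HFD CXCR6pos and 59.5, 75.3 and 95.1 CPM (lowest, median and highest) in CD-HFD CXCR6neg, 49.2, 97.8 and 131 CPM in ND CXCR6pos and 31.9, 98.9, 99.4 and 113 CPM in ND CXCR6neg, with an interaction of -1.80 ± 0.41. Ifngr1, a chain of the interferon gamma receptor, averaged 361 ± 47.6 CPM in CD-HFD CXCR6pos, 652 ± 44.5 CPM in CD-HFD CXCR6neg, 559 ± 146 CPM in ND CXCR6pos and 609.8 ± 67.0 CPM in ND CXCR6neg (SD), with an interaction of -0.82 ± 0.17. Both kept their calls in every alternative.

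Of 24 tested immediate-early genes 3 were lower (12.5%) and none was higher, with a median interaction of -0.28. Fos, an AP-1 subunit, had 156, 162, 165, 212 and 218 CPM in CD-HFD CXCR6pos and 307, 378 and 498 CPM in CD-HFD CXCR6neg, 369, 578 and 842 CPM in ND CXCR6pos and 528, 628, 660.3 and 714 CPM in ND CXCR6neg. Its interaction of -1.08 ± 0.27 kept its call in 16 of 21 leave-one-out fits. Nfkbia, the inhibitor of NF-kB, had an interaction of -0.77 ± 0.18, and Zfp36l1, an RNA-binding protein that destabilises transcripts, one of -0.75 ± 0.20.

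In the list of S100, annexin and galectin genes, 2 of 16 tested were lower (12.5%): Vim, the intermediate filament vimentin, at -1.02 ± 0.24, and Ahnak, a large scaffold protein, at -1.01 ± 0.19. Ahnak averaged 415 ± 69.5 CPM in CD-HFD CXCR6pos, 698 ± 93.3 CPM in CD-HFD CXCR6neg, 769 ± 211 CPM in ND CXCR6pos and 706 ± 114 CPM in ND CXCR6neg (SD). Gab3, a docking adaptor, had 0, 5.77, 12.4, 23.6 and 23.6 CPM in CD-HFD CXCR6pos, 24.1, 61.1 and 94.1 CPM (lowest, median and highest) in CD-HFD CXCR6neg, 59.2, 75.8 and 98.5 CPM in ND CXCR6pos and 36.1, 53.4, 71.7 and 77.9 CPM in ND CXCR6neg, and an interaction of -2.36 ± 0.46. Dnajc15, a mitochondrial co-chaperone, averaged 183 ± 35.6, 457 ± 62.7, 550.3 ± 94.9 and 521 ± 94.0 CPM (SD) in CD-HFD CXCR6pos, CD-HFD CXCR6neg, ND CXCR6pos and ND CXCR6neg, with an interaction of -1.41 ± 0.20 (adjusted p = 1.19e-07 by edgeR). Dnajc15, Gab3 and Ahnak kept their calls in every alternative. Klra9, an inhibitory Ly49 receptor, was the 1 called gene among 13 killer lectin-like receptors tested, with an interaction of -2.68 ± 0.71, and the Klra genes are near-identical, so its counts are uncertain.

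Inhibitory receptors and other exhaustion genes separated the CD-HFD fractions, but 1 of 23 tested had an interaction (4.35%, against 1.44% of all genes). Under CD-HFD 19 of the 23 were higher in CXCR6pos and none was lower, against 4.76% higher and 6.38% lower of all genes. The median log2 fold change was 1.20 under CD-HFD and 0.15 under ND, with a median interaction of 1.14. The called member was Cd38, an ectoenzyme that consumes NAD, with 88.6, 118, 121, 149 and 159 CPM in CD-HFD CXCR6pos, 24.1, 35.4 and 69.8 CPM (lowest, median and highest) in CD-HFD CXCR6neg, 15.1, 48.3 and 86.9 CPM in ND CXCR6pos and 33.3, 35.4, 36.1 and 61.8 CPM in ND CXCR6neg. Its interaction of 1.59 ± 0.44 (adjusted p = 0.0412 by edgeR) kept its call in 9 of 21 leave-one-out fits and not without the 2 gate-discordant libraries (adjusted p = 0.513).

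Pdcd1, which encodes the inhibitory receptor PD-1, had 446, 508, 545, 566 and 601 CPM in CD-HFD CXCR6pos and 82.8, 148 and 157 CPM (lowest, median and highest) in CD-HFD CXCR6neg, against 19.4, 59.7 and 76.9 CPM in ND CXCR6pos and 6.67, 19.8, 22.6 and 28.3 CPM in ND CXCR6neg. It was higher under CD-HFD in both fractions, by 3.38 in CXCR6pos and 2.63 in CXCR6neg on the log2 scale (adjusted p = 8.25e-13 and 3.12e-04 by edgeR). The fraction difference was 2.00 under CD-HFD and 1.25 under ND, and the interaction of 0.75 had a 95% interval of -0.43 to 1.93 (adjusted p = 0.721 by edgeR). Tox, a transcription factor of exhausted cells, was likewise higher under CD-HFD in CXCR6pos (2.40) and in CXCR6neg (1.46), with an interaction of 0.94 (0.14 to 1.73). Havcr2, which encodes TIM-3, had an interaction of 1.71 (0.069 to 3.36) at 6.16 CPM in ND CXCR6pos and 11.7 CPM in ND CXCR6neg, where the counts are too few for a narrow interval. Cxcr6 itself missed the threshold, with an interaction of 1.97 ± 0.52 (adjusted p = 0.0568 by edgeR). It was called in 4 of 11 alternative fits, among them DESeq2 and the replicate block within diet. The 11 include the fit without the 2 gate-discordant libraries, which were chosen by Cxcr6, so nothing is read from that fit. Cxcr6 was called in 3 of 21 leave-one-out fits, with values from 1.38 to 2.21 in these 21 fits.

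**Figure D5:**
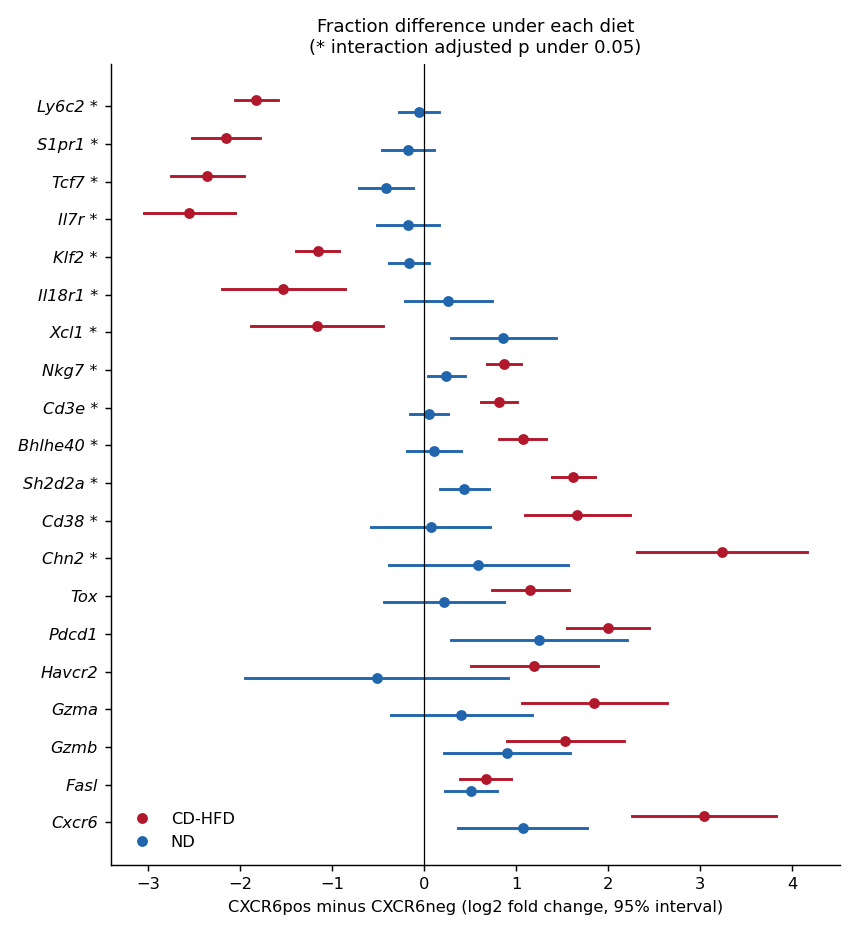
CXCR6pos minus CXCR6neg log2 fold change (horizontal axis) with its 95% interval under CD-HFD (red) and ND (blue) for 20 genes, with a star at genes whose interaction passed. The pairs of intervals are apart for Ly6c2, S1pr1, Tcf7, Il7r and Klf2 and overlap for Pdcd1, Gzmb and Fasl.

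Several lower interactions were those of genes nearly absent from CD-HFD CXCR6pos libraries. Nt5e, which encodes the adenosine-producing ectoenzyme CD73, had 1 count in the 5 CD-HFD CXCR6pos libraries and 39 in the 6 CD-HFD CXCR6neg libraries, a ratio of 30.7 with an exact 95% counting interval of 5.20 to 1244. Tdrp had 1 and 53 counts (ratio 41.8, 7.18 to 1680), Ramp1, a partner of the CGRP receptor, 1 and 49 counts (38.6, 6.61 to 1555) and Pcsk4, a proprotein convertase, 3 and 37 counts (9.72, 3.08 to 49.3). Ppfia4, a liprin, had 0 counts in CD-HFD CXCR6pos and 45 in CD-HFD CXCR6neg, which makes it at least 11.8-fold lower against a floor of 3 counts over the group. Ncf1, an NADPH oxidase subunit, had 0 and 39 counts, at least 10.2-fold lower. Under ND, Nt5e had 16.1, 35.8 and 60.4 CPM (lowest, median and highest) in CXCR6pos and 13.3, 17.7, 31.6 and 54.4 CPM in CXCR6neg. Tdrp had 0, 38.1 and 65.1 CPM in ND CXCR6pos and 36.1, 37.1, 49.6 and 66.7 CPM in ND CXCR6neg. Nt5e, Tdrp and Pcsk4 kept their calls without each library in turn and without the 2 gate-discordant libraries, and none of these 3 was called by DESeq2. Ncf1 kept its call in 17 of the 20 leave-one-out fits in which it was tested, Ramp1 in 12 of 21 and Ppfia4 in 5 of 13. Without the 2 gate-discordant libraries Ncf1 was not called (adjusted p = 0.0624 by edgeR) and Ppfia4 was not tested. Ramp1 then had an interaction of -2.20 (adjusted p = 0.631 by edgeR) and an ND difference of -2.60 that was called (adjusted p = 0.04).

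Plac8, a small protein of myeloid and lymphoid cells, and Fcer1g, the Fc receptor gamma chain, had lower interactions that shrank without the 2 gate-discordant libraries. Plac8 had 12.4, 20.3, 23.6, 28.9 and 35.4 CPM in CD-HFD CXCR6pos and 207, 276 and 335 CPM in CD-HFD CXCR6neg, and 49.2, 68.9 and 226 CPM in ND CXCR6pos and 84.1, 217, 234 and 253 CPM in ND CXCR6neg. The ND CXCR6pos value of 226 CPM was that of replicate 6 and the lowest ND CXCR6neg value that of replicate 4. Without those libraries its ND difference was called, and the interaction was -1.88 in place of -2.79. Fcer1g, on the lists of plasmacytoid dendritic cell and of NK cell markers, was called with all libraries (-1.75 ± 0.42). Without those libraries it was at -1.13 and not called (adjusted p = 0.292 by edgeR). Of 17 tested genes on the plasmacytoid dendritic cell list 1, Fcer1g, had an interaction, at a list median of -3.06, and 15 were lower in CXCR6pos under CD-HFD. Whether Plac8 or Fcer1g followed these markers was not tested. Apoe, an apolipoprotein of hepatocytes and macrophages, averaged 73.6 ± 54.7 CPM in CD-HFD CXCR6pos, 12.6 ± 7.51 CPM in CD-HFD CXCR6neg, 55.9 ± 24.5 CPM in ND CXCR6pos and 51.7 ± 24.5 CPM in ND CXCR6neg (SD), so the lowest group was CD-HFD CXCR6neg. Its interaction of 2.51 ± 0.62 kept its call in 15 of 21 leave-one-out fits (1.65 to 3.04) and in 6 of 11 alternatives, and not without the 2 gate-discordant libraries (adjusted p = 0.14 by edgeR). The summed level of 16 hepatocyte markers ran from 37.5 to 172 CPM in CD-HFD CXCR6pos, 12.8 to 109 CPM in CD-HFD CXCR6neg, 89.9 to 295 CPM in ND CXCR6pos and 86.7 to 131 CPM in ND CXCR6neg. The part of that level in the Apoe result was not tested.

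For 3 genes the interaction was called while neither diet was. Cd226, an activating receptor also known as DNAM-1, had 0, 24.9, 27.0, 40.4 and 41.3 CPM in CD-HFD CXCR6pos, 25.5, 53.6 and 84.5 CPM (lowest, median and highest) in CD-HFD CXCR6neg, 0, 119 and 180.4 CPM in ND CXCR6pos and 26.7, 58.7, 64.3 and 103 CPM in ND CXCR6neg. The fraction difference was -0.68 under CD-HFD (-1.36 to -0.0066) and 0.95 under ND (0.47 to 1.43), and the interaction was -1.64 ± 0.42 (adjusted p = 0.0191 by edgeR). It separated the fractions only under ND in other fits: without a filter on low counts, when ND CXCR6neg replicate 5 or replicate 6 of ND CXCR6pos was left out, with the library held in 2 columns kept, and with a replicate block. Its interaction was not called without CD-HFD CXCR6pos replicate 2, without CD-HFD CXCR6neg replicate 6 or without the 2 gate-discordant libraries (adjusted p = 0.0534 by edgeR). Parg, which removes poly(ADP-ribose), was at 0.80 under CD-HFD and -0.83 under ND, and Tfip11, a splicing factor, at 0.76 under CD-HFD and -0.98 under ND. Parg kept its call in 14 and Tfip11 in 6 of 21 leave-one-out fits.

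Other programs showed no interaction past the threshold. None was called among 22 interferon response, 12 proliferation, 12 glycolysis, 18 heat-shock and stress, 19 BCL2 family and apoptosis and 8 GIMAP genes tested, with median interactions from -0.15 for glycolysis to 0.33 for the BCL2 family. At the 1.44% of all genes, lists of this size would hold few or no calls, so nothing is read from their absence. Of 74 ribosomal protein genes 1, Rps19, was lower (1.35%, near the 1.44% of all genes), although 33 were lower in CXCR6pos under CD-HFD. In all, 36 of the 89 genes were on a list and 53 on none. Across leave-one-out fits, 43 of the 89 genes kept their call in all 21, and 27 kept it in every alternative in which they were tested. These 27 included Ly6c2, S1pr1, Tcf7, Il7r, Klf2, Plac8, Xcl1, Sh2d2a, Cd3e and Ccl5.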

How the data were processed

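Polyadenylated RNA of cells sorted into lysis buffer was sequenced from the 3′ end in bulk, with sample barcodes and unique molecular identifiers, per the labels' protocols. The authors deposited whole-number counts per gene symbol in 1 table; the genome build GRCm38.p6 and the tool DESeq2 1.14.1 are named in the submitters' processing notes. Strand handling, the aligner, the annotation and any collapsing of molecular identifiers were not given in the sources used here, so overlapping and antisense genes cannot be told apart. Of the columns, 34 matched a labelled sample by name and 1, named as ND CXCR6neg replicate 6, matched none and was not used; the labels number that group's replicates 1 to 5, so its replicate numbers are uncertain. The count in 2 columns was identical in all genes, and both (ND CXCR6neg replicate 1 and a spleen library) were left out.

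The 32 remaining libraries of 6 groups, including spleen, were fitted together so that they share 1 estimate of the spread. Genes were kept by filterByExpr by group (6174 of 22865), scaled by TMM and tested in edgeR 4.0.16 (R 4.3.3) by the quasi-likelihood method, with 1 coefficient per group. Benjamini-Hochberg adjustment ran over all tested genes in each comparison, the threshold was 0.05, and tests are two-sided. The common dispersion was 0.0149. Standard errors are the log2 fold change divided by the square root of F, and 95% intervals follow from them. The fit was also run on simulated counts with set changes in CD-HFD CXCR6pos only. These held no gate-discordant or paired libraries, so nothing about the present libraries is read from that run. Counting intervals and floors (3 counts over a group) cover counting error only.

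Genes are named by a rule: an adjusted p under 0.05, at least 20 CPM in the highest liver group, and then the 15 largest changes per direction, the 6 smallest p per class and sign, and 4 members of each list, with a set of T cell genes named whatever their p. The text gives part of the genes this rule allows, and 1 gene, included in the fits and counts, is not reported here. The comparison, the rule and the gene lists were chosen with earlier results of these data known. Alternatives were DESeq2 1.42.0, other size factors and filters, the liver groups alone, the identical library kept, shallow or gate-discordant libraries left out, each library left out in turn, and the replicate number as a block. Promoter sequences are from RefSeq and motifs were matched by letters.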

Additional observations from a re-analysis of the deposited data

Results flagged for a closer look

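Of 266 sets of values (1 gene in 1 group of 4 to 6 libraries) examined for a library far from the rest of its group, 23 had one. The cutoff is meant to flag about 1 in 20 sets of normally distributed values. Sets with counts in 1 library only are always flagged, as for Nt5e, Ramp1 and Tdrp in CD-HFD CXCR6pos, so nothing is read from the number flagged. In the CD-HFD CXCR6pos group, replicate 1 held Nt5e at 5.91 CPM and Tox at 573 CPM, replicate 3 held Siglech at 12.4 CPM and Tdrp at 6.22 CPM, replicate 4 held Ramp1 at 2.89 CPM, and replicate 5 held Klra9 at 17.7 CPM and Nfkbia at 141 CPM. Among CD-HFD CXCR6neg libraries, replicate 1 held Cd8a at 1050.4 CPM, replicate 4 held Chst12 at 66.1 CPM, replicate 5 held Ciapin1 at 24.1 CPM, Dnajc15 at 579 CPM and P2rx7 at 36.2 CPM, and replicate 6 held Apoe at 26.6 CPM. For ND CXCR6pos, replicate 1 held Bhlhe40 at 98.5 CPM and Cd8a at 739 CPM, and replicate 6 held Grn at 128 CPM, Plac8 at 226 CPM, Ppfia4 at 35.2 CPM, Ramp1 at 45.3 CPM and Siglech at 133 CPM. In ND CXCR6neg, replicate 2 held Klra9 at 20.01 CPM, and replicate 4 held Cd38 at 61.8 CPM and Rps19 at 3467 CPM. The ND CXCR6pos values are those of replicate 1, which has the fewest counts, and of replicate 6, which goes against its gate.

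Among the genes the naming rule allows, the difference between fractions differed between the diets, by the interaction test, in the following, given as interaction log2 fold changes. The highest values were those of Chn2 2.65, Apoe 2.51, Podnl1 2.46, Tfip11 1.74, Susd3 1.66, Parg 1.63, Cd38 1.59 and Lax1 1.56. Next came Chst12 1.41, Ciapin1 1.26, Sh2d2a 1.18, Hist1h1c 1.11, Fyn 1.05, Rnf166 0.99, Bhlhe40 0.96 and Clta 0.85. Smaller positive values were those of Cd27 0.81, Prf1 0.77, Cd3e 0.76, Ccl5 0.73, Cd3g 0.65, Nkg7 0.62 and Trbc2 0.61. The lowest values were those of Ppfia4 -5.44, Ncf1 -5.35, Tdrp -4.71, Nt5e -4.55, Ramp1 -4.12, Pcsk4 -3.26, Plac8 -2.79 and Klra9 -2.68. Above these came Il7r -2.38, Gab3 -2.36, Ccr7 -2.28, Kcnj8 -2.19, Ass1 -2.18, Bmyc -2.15 and Xcl1 -2.03. Intermediate negative values were those of S1pr1 -1.98, Tcf7 -1.94, Il18r1 -1.80, Ly6c2 -1.76, Fcer1g -1.75, Cd226 -1.64, Dnajc15 -1.41 and Fos -1.08. Smaller negative values were those of Vim -1.02, Ahnak -1.01, Klf2 -0.99, Ifngr1 -0.82, Nfkbia -0.77, Zfp36l1 -0.75 and Rps19 -0.56. For Ppfia4 and Ncf1, with no count in CD-HFD CXCR6pos, the fitted value depends on the prior count and is no bound. Some further calls, besides those described above, were not stable. Of 21 leave-one-out fits, Podnl1 and Ass1 kept their call in 13, Rps19 in 11, Ciapin1 in 10, Chst12 in 8 and Susd3 in 6. None of these was called without the 2 gate-discordant libraries. Kcnj8, Bmyc, Hist1h1c, Rnf166 and Clta also lost their call there.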

How the results depend on the processing

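The interaction was called for 67 to 109 genes without 1 library in turn, lowest without ND CXCR6pos replicate 6, and for 85 with DESeq2, of which 67 were among the 89. Without both gate-discordant libraries it was called for 53 genes, and the class separated only under CD-HFD held 46. Without 1 library that class held 62 to 107 genes, the classes only under ND 0 to 2, under both 0 to 3 and under neither 1 to 5.

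The count between ND fractions (2) was the least stable: 15 with DESeq2, 18 with no filter, 14 with the identical library kept in 1 or in both groups, 90 without the gate-discordant libraries, and 0 with relative-log-expression size factors, with a mean of at least 20 CPM, with the liver groups alone and without the shallow libraries, with 0 to 58 without 1 library. For it 501 genes had an unadjusted p under 0.05. The count between diets in CXCR6neg cells (29) was 53 and 55 with the identical library kept in 1 and in both groups, 9 without the gate-discordant libraries and 8 to 45 without 1 library. That in CXCR6pos cells (697) was 559 to 729 and that between the CD-HFD fractions (688) 561 to 719 without 1 library.

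The class under both diets held 3 genes with DESeq2, 6 with no filter, 1 with the identical library kept in either way and 5 without the gate-discordant libraries. The class only under ND held 2 with no filter and 1 with the identical library kept. Same-numbered CXCR6pos and CXCR6neg libraries correlated over 3541 genes at -0.0164 to 0.0401 under CD-HFD and at -0.000789 to 0.122 under ND. Under ND, replicates 2 (0.122) and 5 (0.106) were over 0.1, and each correlated best with its own number. The 18 pairs examined also matched libraries of different diets, which bear on no pairing of fractions. Of the 18, 7 correlated best with their own number. A pairing was not shown by the rule used (every pair over 0.1), but under ND it was not excluded. With the replicate block within diet 75 interaction genes and 82 genes between ND fractions (0 for the liver groups with no block) were called, with 2, 12 and 1 in the classes only under ND, under both and under neither. With the block shared across diets these were 64 and 29, with 56 only under CD-HFD and 1, 6 and 1 in the other classes.

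Among named genes, Fasl reversed to -0.12 and -0.13 with the identical library kept and to -0.045 without the gate-discordant libraries, and Foxo1 to 0.093 without those and to 0.12 without ND CXCR6neg replicate 4 (range -0.91 to 0.12 without 1 library); neither was ever called. The cause of these shifts was not tested. Low counts limit genes under about 20 CPM. Wide intervals were not confined to these genes. The median standard error of the interaction over all genes tested was 0.397, and the intervals of Gzmb and Pdcd1, given above, spanned over 1 log2 unit.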
